A study of Drosophila melanogaster with 6 samples.

Results

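The fourth chromosome of Drosophila melanogaster is a small autosome on which genes lie among repeats packed as heterochromatin, and 46 of its named genes were followed here in cultured S2 cells after depletion of ROW. The genes were chosen by symbol, and a gene counted as measured where the platform annotation gave a probe set its symbol alone, with the probe set of the highest mean over the 6 arrays taken for each gene. By this rule 38 of the 46 genes were measured, out of 11981 genes with such a probe set on the array. Thd1 and bip2 were found under their newer symbols Tdg and Taf3. No probe set carried the symbol of pan, PlexA, CaMKI, RpS3A, lgs, pho, Arl4 or Arf102F alone, and these 8 genes are not analysed here. The reference gene table placed all 38 measured genes on chromosome 4, together with 27 further measured genes that were not in the list.

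The study set 3 arrays of control S2 cells, named wild type in the labels, beside 3 arrays of S2 cells in which ROW was depleted by RNA interference, through 96 h of soaking in double-stranded RNA directed at it. S2 is a cell line of embryonic origin with features of blood cells, and all arrays shared its culture medium, the extraction of total RNA and an isothermal amplification before labelling. Whether the control cells received any double-stranded RNA is not stated, so an effect of ROW depletion and one of the soaking itself cannot be told apart. Nor is it stated that the arrays of a group came from separate cultures, and the p-values rest on the spread between these 6 arrays, which could be technical alone. In RNA from whole cultures, fewer cells with a transcript and less of it per cell cannot be told apart either.

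Most genes of the fourth chromosome are transcribed although the proteins that mark heterochromatin, such as HP1a, cover much of it. The protein encoded by Pof binds along active genes of this chromosome and raises their output, and the H3K9 methyltransferase Eggless acts there as well. ROW, a protein with zinc fingers, forms a complex with WOC and HP1c, the latter a relative of HP1a found mainly in euchromatin. The comparison asks which genes of the fourth chromosome had other transcript levels once ROW was depleted.

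Values are RMA expression values on the log2 scale, so a difference of 1 is a 2-fold change. They depend on the probes as well as on the transcript and were compared between arrays for the same probe set. The background level was set at 3.39, the 95th percentile over 17 tag controls. The row transcript itself had values of 10.44, 10.60 and 10.54 in the controls against 9.04, 8.91 and 8.91 after ROW RNAi, a difference of −1.58 (limma adjusted p = 0.0023) on the brightest of its 3 probe sets, which left 33.5% of the control level. The others differed by −2.61 and −2.66 and left 16.4% and 15.9%. All 12 hemocyte markers examined lay above background and 11 of them above 8, though He, which encodes the surface protein hemese, fell by 0.69 (limma adjusted p = 0.010) and the scavenger receptor gene Sr-CI rose by 0.62 (adjusted p = 0.022). The mean over 9 neuronal markers was 5.46 to 5.75 in control and 5.35 to 6.03 in ROW RNAi arrays. Over 7 germline and testis markers that mean was 6.43 to 6.72 in control and 6.47 to 7.08 in ROW RNAi arrays. Over 4 muscle markers it was 6.43 to 6.51 and 6.30 to 6.58. The 1 adult eye marker measured, trp, lay between 5.33 and 5.68 on all arrays. The germline and testis markers aly and can and the muscle actin gene Act88F had means over all 6 arrays below background, with can at 4.66 on ROW RNAi replicate 1. Others in these lists were bright. Such means were 10.72 for aub, 10.35 for bam and 8.58 for osk (germline and testis), 12.70 for Mf (muscle) and 8.18 for brp (neuron). On the first principal component, which held 66.9% of the variance between arrays, the controls scored from −26.5 to −3.69, and ROW RNAi replicate 2 lay within that range at −19.5 while replicates 1 and 3 scored 42.7 and 20.8. The part of this spread in the results below was not tested, and values without ROW RNAi replicate 2 are given where they change a call on a gene of chromosome 4.

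Of the 38 measured genes, dpr7, Zip102B and RhoGAP102A fell in ROW-depleted cells, to 68.1%, 71.3% and 72.0% of the control level, and 0 genes rose. The 3 genes that fell make up 7.89% of those measured, where 0.757% of all 18769 tested probe sets fell and 0.405% rose (limma, Benjamini-Hochberg adjusted p under 0.05). Among the 11827 measured genes of the other chromosomes, 0.998% fell and 0.55% rose. At an unadjusted p under 0.05, 11 of the 38 were lower and 2 higher, where 9.27% of all tested probe sets were lower and 4.53% higher. The list was drawn up when the calls on these 3 genes were known, so their share was not tested against the background. In all, 28 of the 38 differences (73.7%) were below 0, beside 58.3% over all tested probe sets and 60.1% over the genes of other chromosomes, with a median of −0.07 and a range from −0.95 to 0.53, beside a median of −0.03 over all tested probe sets.

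In 11 of the 38 genes every ROW RNAi array lay below every control array, and in 2 every ROW RNAi array lay above. These shares of 28.9% and 5.26% stand beside 14.4% and 7.0% of all tested probe sets. Over the measured genes of the other chromosomes the shares were 16.7% and 7.59%. These shares varied with the mean level over the 6 arrays. The bands used were means below 4, 4 to 6, 6 to 8, 8 to 10 and 10 and over. In this order, the lower share on other chromosomes was 9.51%, 14.1%, 24.6%, 24.1% and 19.0%. The higher share was 4.40%, 4.16%, 10.4%, 9.54% and 11.2%. Listed genes all below control were 2 of 11, 1 of 4, 2 of 6, 3 of 9 and 3 of 8. Those all above were 0 of 11, 1 of 4, 1 of 6, 0 of 9 and 0 of 8.

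**Figure D1:**
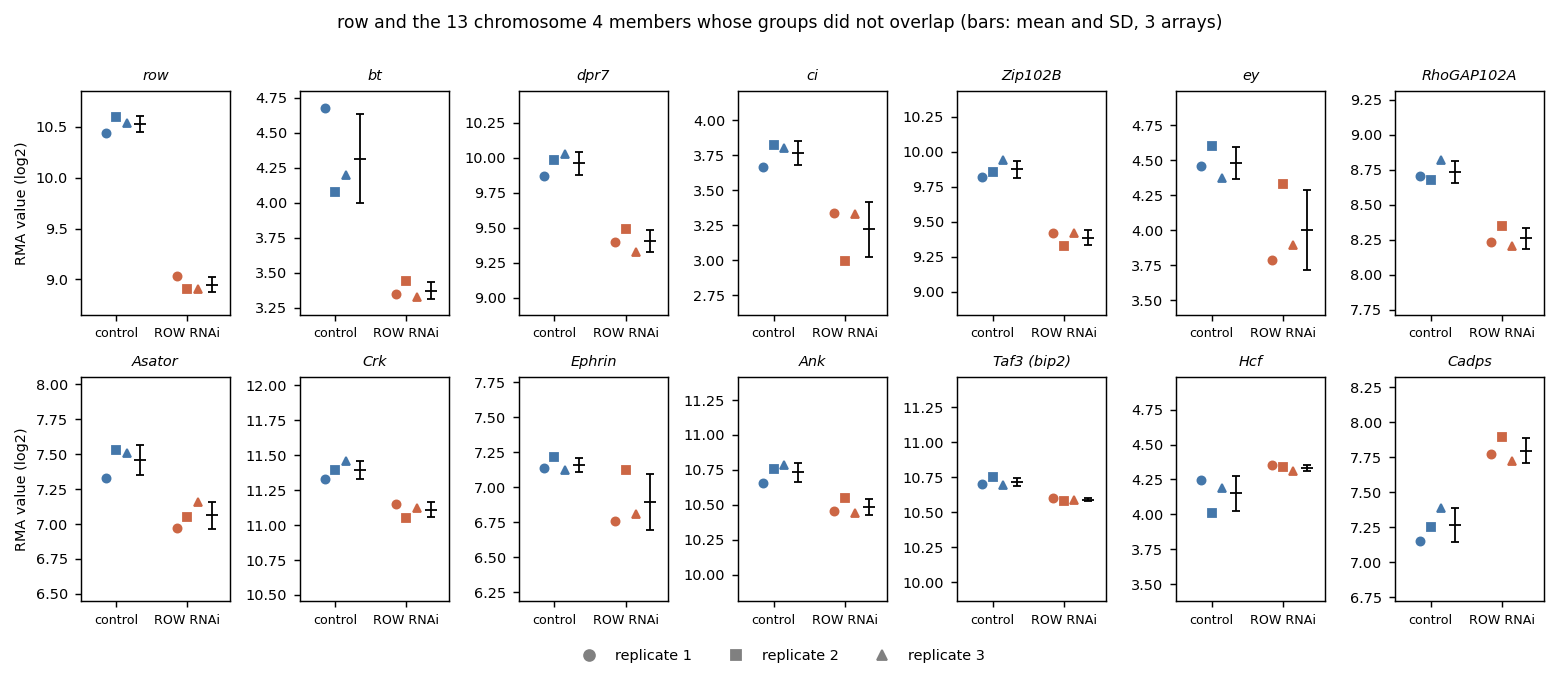
RMA values (log2, y axis) of row and of the 13 chromosome 4 genes whose groups did not overlap, in 3 control arrays (blue) and 3 ROW RNAi arrays (orange), with the mean and SD of each group beside the points. Every gene panel but that of row spans the same range of log2 values. The 3 genes past the test, dpr7, Zip102B and RhoGAP102A, show a gap wider than the range of values in either group. So do Cadps, Crk, Taf3 and bt, which did not pass it. In ey and Ephrin ROW RNAi replicate 2 (square) lies next to the controls.

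Among genes for adhesion, transport, vesicles and synapses, 2 of 7 passed the test, both lower. dpr7 encodes a cell surface protein of the immunoglobulin superfamily, a member of the Dpr family known for pairing neurons with their partners. Its values were 9.87, 9.98 and 10.03 in the controls against 9.40, 9.49 and 9.33 after ROW RNAi. The groups were 0.38 apart at their nearest arrays, and the mean went from 9.96 ± 0.08 to 9.40 ± 0.08 (SD, n = 3 arrays each), a difference of −0.56 (SE 0.07, limma adjusted p = 0.032).

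Zip102B encodes a zinc transporter of the ZIP family. It had values of 9.82, 9.86 and 9.94 in control against 9.42, 9.33 and 9.42 in ROW RNAi arrays. The ROW RNAi arrays all lay 0.40 or more below the lowest control array, and the mean went from 9.87 ± 0.06 to 9.39 ± 0.05 (SD, n = 3 arrays each), a difference of −0.49 (SE 0.06, limma adjusted p = 0.027).

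Cadps, whose product primes dense core vesicles for release, showed the opposite order. On its brightest probe set the values were 7.15, 7.25 and 7.39 in the controls against 7.78, 7.89 and 7.72 after ROW RNAi, with no overlap. The difference of 0.53 (SE 0.08) did not pass the test (limma adjusted p = 0.060). A second probe set of Cadps pointed the other way at −0.42 (SE 0.21, adjusted p = 0.45), with values of 6.31, 6.21 and 5.56 in the controls against 5.51, 5.78 and 5.55 after ROW RNAi.

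Gat, which encodes a GABA transporter, was at 3.998, 3.48 and 3.39 in the controls against 4.63, 3.43 and 4.27 after ROW RNAi. Syt7, which encodes a calcium sensor of the synaptotagmin family, was at 3.17, 2.67 and 3.19 against 3.49, 2.84 and 4.11. In both genes ROW RNAi replicates 1 and 3 were above every control array and replicate 2 was not, a pattern shown by these 2 of the 38 genes, by 10.1% of all tested probe sets and by 8.13% of the genes on other chromosomes. The vesicle priming gene unc-13 was at 9.72, 9.83 and 9.89 against 9.70, 9.78 and 9.63, a difference of −0.11 (SE 0.07). Slip1, whose product interacts with the Slowpoke potassium channel, was at 10.57, 10.69 and 10.69 against 10.64, 10.67 and 10.58, a difference of −0.02 (SE 0.06). The groups of both genes overlapped.

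Among genes of kinases, GTPase regulators and adaptors, all 4 measured were below 0, beside 58.3% of all tested probe sets. In 3 of the 4 all ROW RNAi arrays lay below the controls, beside 14.4% of all tested probe sets. RhoGAP102A, which encodes a GTPase-activating protein, was measured by a pair of probe sets. On the brighter the values were 8.71, 8.67 and 8.82 in the controls against 8.23, 8.34 and 8.21 after ROW RNAi, with means of 8.73 ± 0.08 and 8.26 ± 0.07 (SD, n = 3 arrays each) and a difference of −0.47 (SE 0.07, limma adjusted p = 0.042). On the other they were 6.61, 6.74 and 6.78 against 6.25, 6.18 and 6.35, with a difference of −0.46 (SE 0.07) that did not pass the test (adjusted p = 0.065). The groups were apart on both probe sets.

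Asator encodes a kinase of the casein kinase superfamily that interacts with the spindle matrix protein Megator. Its values were 7.33, 7.53 and 7.50 in the controls against 6.97, 7.05 and 7.16 after ROW RNAi, a difference of −0.39 (SE 0.08, limma adjusted p = 0.12). Asator overlaps the gene CG33941, which stood at −0.34 (SE 0.09). Crk, an adaptor with SH2 and SH3 domains in receptor signalling, was at 11.33, 11.39 and 11.46 against 11.15, 11.05 and 11.12, a difference of −0.28 (SE 0.06, adjusted p = 0.12). Neither gene passed the test, and in both the ROW RNAi arrays lay 0.17 or more below the nearest control array. The kinase gene Dyrk3 was at 9.29, 9.30 and 9.30 against 9.23, 9.29 and 9.32, with overlapping groups (−0.02, SE 0.05).

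The calls on dpr7, Zip102B and RhoGAP102A held in 8, 8 and 6 of 17 alternative settings. Each was lost with a replicate block (adjusted p = 0.13, 0.13 and 0.17) and with an unmoderated test (0.077, 0.056 and 0.088). A test against a fold of 1.2 lost them as well (adjusted p = 0.39, 0.47 and 0.88). Each was also lost without control replicate 1, 2 or 3 and without ROW RNAi replicate 1 or 3, at adjusted p-values from 0.11 to 0.18 for dpr7, 0.094 to 0.15 for Zip102B and 0.16 to 0.18 for RhoGAP102A, and each was kept without ROW RNAi replicate 2. The differences with 1 array left out lay between −0.60 and −0.52, between −0.51 and −0.45 and between −0.52 and −0.43 in that order. Centring the arrays on their medians left them at −0.60, −0.53 and −0.52 with adjusted p-values of 0.079, 0.051 and 0.12. The call on RhoGAP102A was also lost with a further quantile normalization (adjusted p = 0.071) and with cyclic loess (0.057).

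**Figure D2:**
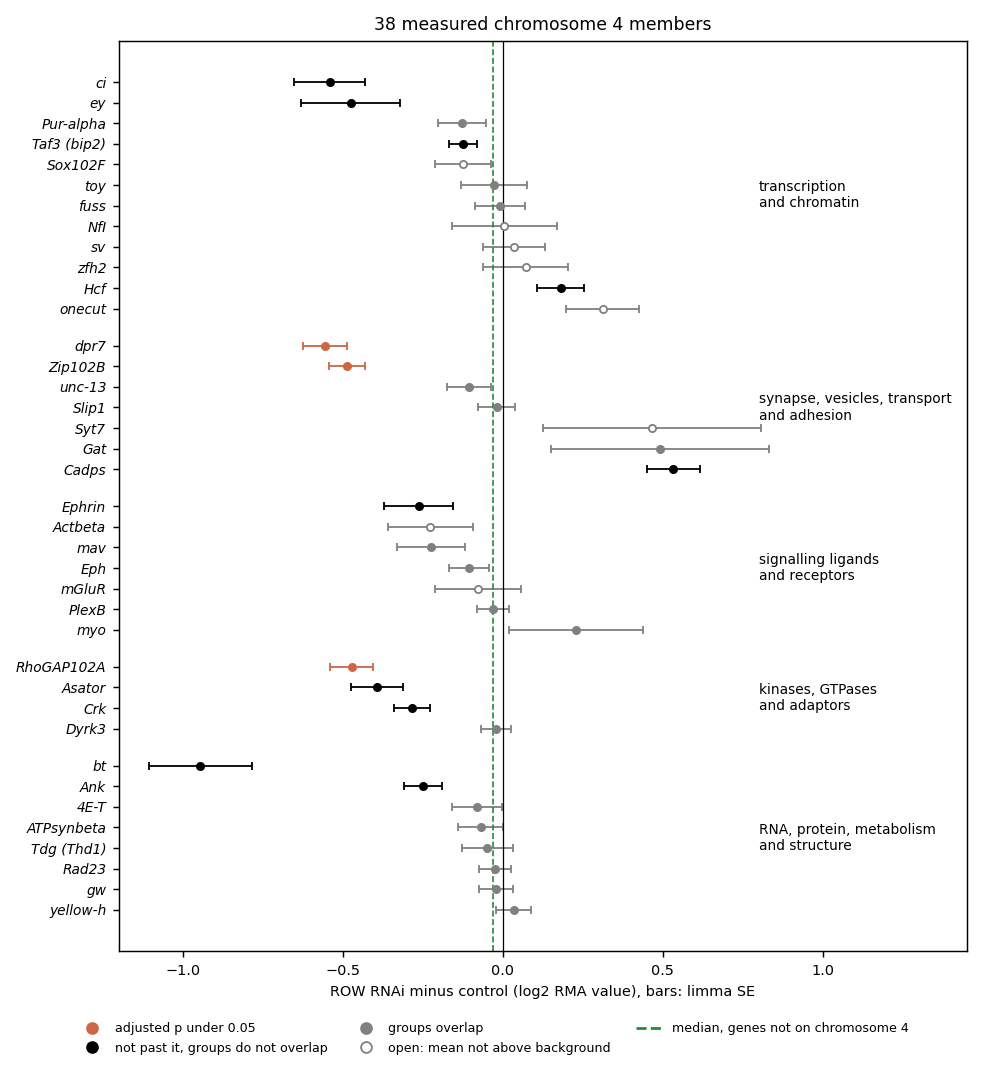
Difference between ROW RNAi and control (log2 RMA value, x axis, bars show the limma SE) for the 38 measured genes, grouped by role. Orange points mark the 3 genes past an adjusted p of 0.05, black points the genes whose groups did not overlap without passing it, and open points the 8 genes whose mean was not above background. The points reach from −0.95 for bt to 0.53 for Cadps.

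Signalling ligands and receptors showed small differences, with 0 of 7 genes past the test. Differences were below 0 in 6 of 7, beside 58.3% of all tested probe sets. Ephrin and Eph form a ligand and receptor pair that guides axons. Ephrin had values of 7.14, 7.22 and 7.12 in the controls against 6.76, 7.12 and 6.81 after ROW RNAi, a difference of −0.26 (SE 0.11, limma adjusted p = 0.36). ROW RNAi replicate 2 was 0.0008 below the lowest control array, and without it the difference was −0.38 with an adjusted p of 0.050, just under the threshold. Its receptor Eph was at 9.37, 9.44 and 9.43 against 9.22, 9.40 and 9.30, with overlapping groups (−0.11, SE 0.06).

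The 3 ligands of the TGF-beta superfamily on this chromosome had overlapping groups. myo was at 5.30, 4.99 and 5.32 against 4.999, 5.59 and 5.71, a difference of 0.23 (SE 0.21), and mav differed by −0.22 (SE 0.11). Actbeta, an activin-like ligand, was at 3.41, 3.61 and 3.38 in the controls against 3.02, 3.47 and 3.24 after ROW RNAi, around the background level. The glutamate receptor gene mGluR was not above background on any array, from 2.24 to 2.75.

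PlexB, which encodes a semaphorin receptor, was measured by 4 probe sets that did not move together. The brightest gave 9.99, 10.07 and 10.10 in the controls against 10.06, 10.01 and 9.99 after ROW RNAi, a difference of −0.03 (SE 0.05). The dimmest gave 5.01, 3.72 and 4.18 in the controls against 7.59, 3.83 and 7.12 after ROW RNAi, a difference of 1.88 with an SE of 1.04 (limma adjusted p = 0.47). On that probe set ROW RNAi replicates 1 and 3 stood more than 2 log2 units above every control array and replicate 2 among the controls. The other probe sets of PlexB gave −0.22 (SE 0.10) and 0.18 (SE 0.32).

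**Figure D3:**
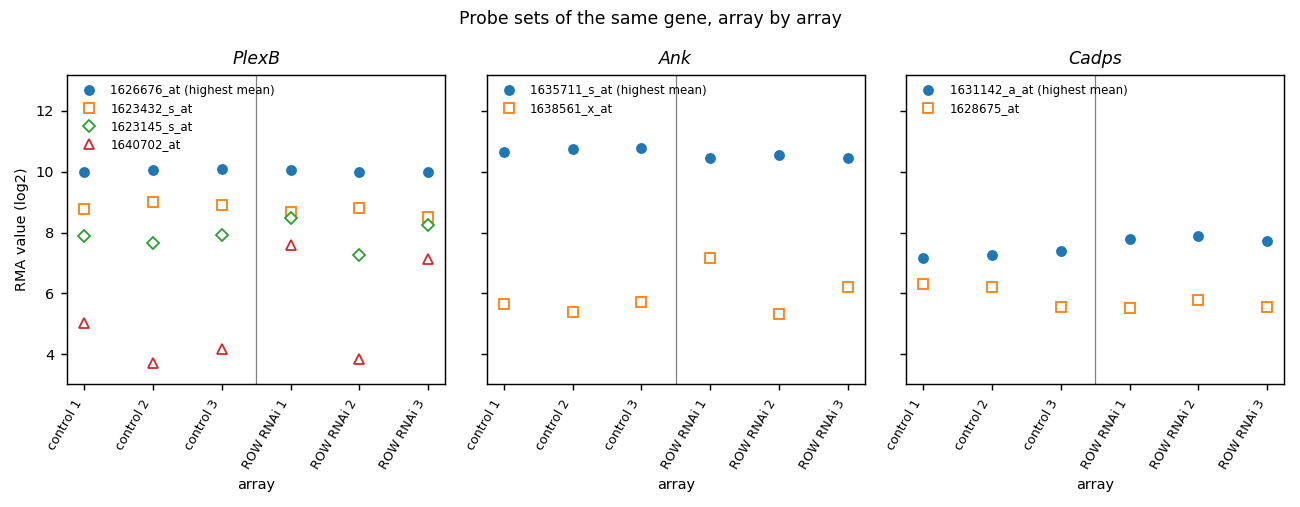
RMA values (log2, y axis) of each probe set of PlexB, Ank and Cadps on the 6 arrays (x axis), with filled points for the probe set of the highest mean and open points for the others. The dimmest probe sets of PlexB and Ank are high on ROW RNAi replicates 1 and 3. On the brightest ones the groups overlap for PlexB (−0.03) and ROW RNAi arrays are lower without overlap for Ank (−0.25), and the probe sets of Cadps move in opposite directions.

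None of the 12 measured transcription and chromatin genes passed the test. In 3 of them (25%) all ROW RNAi arrays lay below the controls, beside 14.4% of all tested probe sets. In 1 (8.33%) all lay above, beside 7.0%. ci encodes the Gli-type transcription factor at the end of the Hedgehog pathway. Its values were 3.67, 3.83 and 3.80 in the controls against 3.34, 2.99 and 3.33 after ROW RNAi (−0.54, SE 0.11, limma adjusted p = 0.12). All 3 control arrays were above background and none of the ROW RNAi arrays was. With the dim arrays set to the background level, the control level was 1.29-fold higher. The control values were near that level too, so this is no bound on the change in transcript.

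ey encodes a Pax6 transcription factor of eye development. It was at 4.46, 4.60 and 4.37 in the controls against 3.79, 4.33 and 3.89 after ROW RNAi, a difference of −0.48 (SE 0.15, limma adjusted p = 0.28) that stood at −0.64 with an adjusted p of 0.042 without ROW RNAi replicate 2. The other Pax6 gene, toy, was at 5.26, 5.56 and 5.62 against 5.46, 5.47 and 5.43, with overlapping groups (−0.03, SE 0.10). Its dimmer probe sets gave 0.01 and 0.03.

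Taf3, the gene listed as bip2, encodes a subunit of the general transcription factor TFIID. Its values of 10.70, 10.75 and 10.70 in the controls against 10.61, 10.58 and 10.59 after ROW RNAi differed by −0.13 (SE 0.04, adjusted p = 0.31) without overlap. Hcf, which encodes a scaffold of chromatin-modifying complexes, was at 4.25, 4.01 and 4.19 against 4.35, 4.34 and 4.31, a difference of 0.18 (SE 0.07, adjusted p = 0.36) that also left the groups apart.

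onecut, a homeobox gene, was below background on all arrays, at 2.37, 2.22 and 2.61 against 2.61, 2.79 and 2.73. The Pax2 gene sv, the zinc finger homeobox gene zfh2 and NfI were likewise below background on all 6 arrays, and Sox102F on 3 of them. fuss, a gene of the Ski and Sno family, was at 9.32, 9.43 and 9.30 against 9.36, 9.21 and 9.45, and Pur-alpha, which encodes a nucleic acid binding protein, differed by −0.13 (SE 0.08). In both the groups overlapped.

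Genes for metabolism, RNA, protein turnover and cell structure had 7 of 8 differences below 0, beside 58.3% of all tested probe sets. Of these genes 0 of 8 passed the test. bt encodes projectin, a giant titin-like protein of muscle. It was at 4.67, 4.08 and 4.20 in the controls against 3.35, 3.44 and 3.32 after ROW RNAi, a difference of −0.95 (SE 0.16, limma adjusted p = 0.081). The groups did not overlap, 1 of the 3 ROW RNAi values was above background and their mean of 3.37 was not, and control replicate 1 stood apart from the other controls.

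Ank encodes ankyrin, which ties the spectrin skeleton to membrane proteins. On the brighter probe set it was at 10.65, 10.76 and 10.79 against 10.46, 10.55 and 10.44, a difference of −0.25 (SE 0.06, adjusted p = 0.17) without overlap. The other, whose name marks probes that may bind further transcripts, was at 5.66, 5.37 and 5.70 against 7.17, 5.32 and 6.19, again high on ROW RNAi replicates 1 and 3 (0.65, SE 0.46).

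The housekeeping genes of this group did not differ beyond the spread between arrays. ATPsynbeta, which encodes the beta subunit of the mitochondrial ATP synthase, was at 12.12, 12.13 and 12.24 in the controls against 12.11, 12.18 and 11.98 after ROW RNAi. Rad23, whose product delivers ubiquitylated proteins to the proteasome, was at 11.96, 11.98 and 12.05 against 11.98, 12.0015 and 11.92. The groups of both genes overlapped, with differences of −0.07 (SE 0.07) and −0.02 (SE 0.05). 4E-T, whose product binds the cap-binding protein eIF4E, was at 8.43, 8.66 and 8.42 against 8.39, 8.45 and 8.43 (−0.08, SE 0.08). The microRNA effector gene gw (−0.02, SE 0.05), the thymine DNA glycosylase gene Tdg (−0.05, SE 0.08) and yellow-h (0.03, SE 0.05) had overlapping groups as well.

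Whether the differences went with the brightness of the probe sets was looked at in bands of the mean over all arrays. All 17 listed genes with a mean of 8 or more were below 0. Among them, 9 genes between 8 and 10 had a median difference of −0.11, where 2139 genes of other chromosomes at that level had −0.04 and 65.2% below 0. At 10 and over, 8 genes had a median of −0.05, where 3235 genes of other chromosomes had −0.01 and 54.1% below 0. The count of 17 was 14 after a further quantile normalization and without control replicate 2 and 15 with cyclic loess. With the unlisted genes of chromosome 4 added, 11 of 12 between 8 and 10 and 15 of 17 at 10 and over were below 0.

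Below a mean of 8 the order was mixed. The 6 genes between 6 and 8 had a median of −0.18 against −0.08 on the other chromosomes. Between 4 and 6 the median of 4 genes was 0.08 against −0.07, and below 4 that of 11 genes was 0.00 against −0.05. All 3 genes that passed the test lay between 8 and 10, a band in which 1.82% of the genes of other chromosomes fell.

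**Figure D4:**
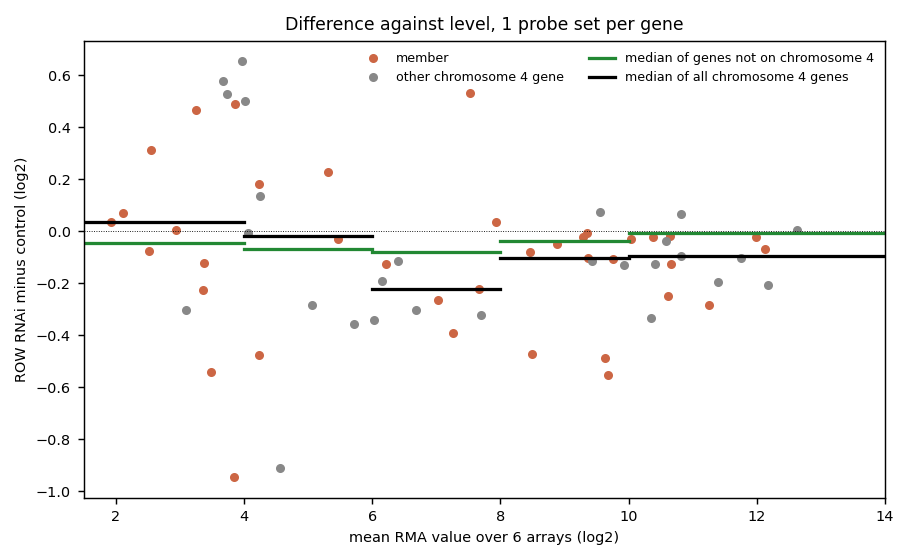
Difference between ROW RNAi and control (log2, y axis) against the mean RMA value over 6 arrays (log2, x axis) for the 38 listed genes (orange) and 27 further genes (grey) of chromosome 4, with 1 probe set per gene. Horizontal lines give the median of all chromosome 4 genes (black) and of genes on other chromosomes (green) in each band of level. The black line is below the green one in the 3 bands from 6 upward and above it in both lower bands.

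The 27 further measured genes of the chromosome, which the list had left out, were read in the same way. None of them passed the test (limma), with 9 lower and 1 higher at an unadjusted p under 0.05, a threshold that 9.27% of all probe sets passed lower and 4.53% higher. Without ROW RNAi replicate 2, CG31998 was called lower (−0.37, adjusted p = 0.046) and CG32006 and Kif3C higher (0.98 each, adjusted p = 0.042 and 0.047). Over all 27 genes the median difference was −0.12 and 19 (70.4%) were below 0, beside 58.3% of all tested probe sets. In 10 of 27 (37.0%) all ROW RNAi arrays lay below the controls, and in 1 (3.70%) all lay above. Of all tested probe sets, 14.4% were below and 7.0% above in this way. Among genes of other chromosomes the shares were 16.7% and 7.59%, with 60.1% of differences below 0. Some of the 27 were named after their values were seen. Zyx, which encodes the focal adhesion protein zyxin, was at 10.56, 10.47 and 10.50 against 10.18, 10.20 and 10.15 (−0.33, SE 0.05, adjusted p = 0.051). CG32017 was at 4.74, 5.25 and 5.05 against 3.97, 4.07 and 4.26 (−0.91, SE 0.15, adjusted p = 0.069). The kinesin gene Kif3C had the highest difference at 0.65 (SE 0.30), with values of 3.58, 3.85 and 3.48 against 4.77, 3.63 and 4.47, and it too was high on ROW RNAi replicates 1 and 3 alone.

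The median of the 38 listed genes on each array, taken against the control means, was −0.04, 0.02 and 0.04 in the controls against −0.10, −0.04 and −0.09 after ROW RNAi. On this measure ROW RNAi replicate 2 did not lie below control replicate 1. Over all 65 chromosome 4 genes the ROW RNAi medians were −0.07, −0.09 and −0.11, below the lowest control array at −0.04. Over genes of the other chromosomes they were −0.04, −0.02 and −0.04, against −0.01, 0.01 and 0.00 in control. There too every ROW RNAi array lay below the lowest control array.

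Along the chromosome, the 3 genes past the test lay close together, and whether this was closer than for other genes was not tested. In the order of the 80 protein-coding genes of the reference gene table, of which 65 were measured, dpr7 was followed directly by RhoGAP102A, and 3 genes separated RhoGAP102A from Zip102B. Of these 3 genes, the bright Rad23 did not share the change, at −0.02 (SE 0.05). NfI, at 0.00 (SE 0.16), was below background on every array, and Syt7, at 0.47 (SE 0.34), on every control array. A fall in either of them could therefore not be seen. The genes on either side of this stretch, CG1674 before it and Rnf11 after it, were at 0.07 (SE 0.05) and 0.01 (SE 0.06) on their brightest probe sets. Their dimmer probe sets gave −0.28 (SE 0.19) and 0.50 (SE 0.33), with overlapping groups in both. By the same table none of the 3 genes that fell overlaps another gene, while 11 of the 38 listed genes overlap a coding or noncoding neighbour. ey and bt, at −0.48 and −0.95, were also direct neighbours. Lower genes just short of the threshold lay elsewhere in this order. Zyx (−0.33, limma adjusted p = 0.051) was at place 66, CG32017 (−0.91, 0.069) at 73 and bt (0.081) at 50. By comparison dpr7, RhoGAP102A and Zip102B were at places 18, 19 and 23.

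Split by their order into runs of 22, 21 and 22 genes, the 65 genes had medians of −0.07, −0.12 and −0.08. All ROW RNAi arrays lay below all controls in 8 of 22, 8 of 21 and 5 of 22 genes (36.4%, 38.1% and 22.7%). The share was 14.4% over all tested probe sets and 16.7% over genes of the other chromosomes. Differences below 0 were found in each run, in 13 of 22, 17 of 21 and 17 of 22 genes (59.1%, 81.0% and 77.3%). Beside them are 58.3% over all tested probe sets and 60.1% over genes of the other chromosomes. The 3 genes past the test were in the first run, and a difference between the runs was not tested.

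**Figure D5:**
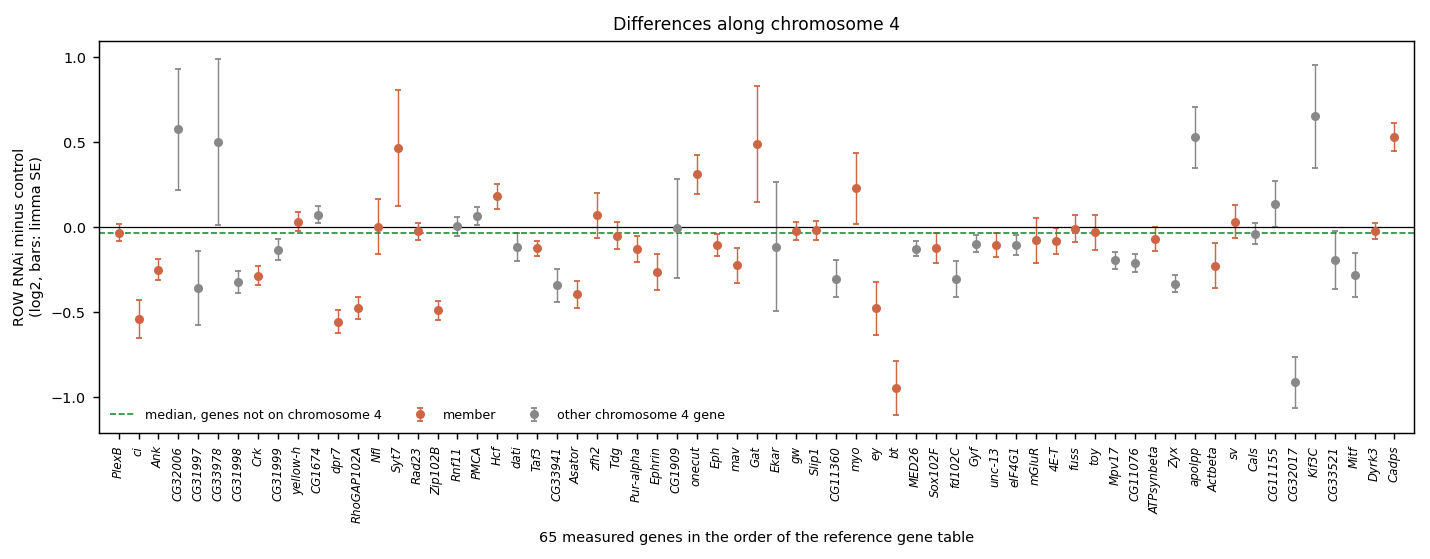
Difference between ROW RNAi and control (log2, y axis, bars show the limma SE) for 65 measured genes of chromosome 4 in the order of the reference gene table (x axis), with listed genes in orange and the others in grey. dpr7 and RhoGAP102A stand side by side at −0.56 and −0.47 with Zip102B nearby at −0.49. On their brightest probe sets the genes between and around them lie near 0 or above it. Of those between, NfI and Syt7 had control values below background.

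Proteins that act on the chromatin of the fourth chromosome were looked at through their transcripts. Of 12 genes listed, 9 were measured, and none passed the test (limma), with 2 at an unadjusted p under 0.05, which 13.8% of all tested probe sets passed. Pof was at 9.34, 9.46 and 9.35 in the controls against 9.36, 9.37 and 9.25 after ROW RNAi (−0.06, SE 0.06). The gene of HP1a was at 13.07, 13.06 and 13.13 against 13.10, 13.06 and 13.04 (−0.02, SE 0.05). Both had overlapping groups.

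wde, whose product is a partner of Eggless, was at 8.07, 8.06 and 8.14 against 7.95, 8.0021 and 7.86 (−0.15, SE 0.06, adjusted p = 0.33). HP5, which encodes an HP1a-binding protein, was at 7.33, 7.36 and 7.41 against 6.93, 7.18 and 7.05 (−0.31, SE 0.08, adjusted p = 0.18). In these genes the groups did not overlap. HP1b, HP4, JIL-1, Su(var)3-7 and Su(var)2-HP2 lay between −0.11 and 0.03. The ROW partners woc (−0.04, SE 0.07) and HP1c (0.02, SE 0.06) had overlapping groups.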

How the data were processed

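RNA of 3 control and 3 ROW RNAi samples was measured on Affymetrix Drosophila Genome 2.0 arrays. Per the submitters' processing notes, the deposited log2 values come from RMA, whose version is not stated there. RMA equalizes the distributions of the arrays and hides a shift common to most transcripts. Of 18952 probe sets, 183 Affymetrix controls were left out and 18769 tested. Symbols came from the platform annotation and were updated by gene ID (13543 of 13646 single-symbol probe sets matched, assembly Release 6 plus ISO1 MT). No source used here names the build of the array annotation, and that table served for names, chromosomes, gene order and overlaps alone.

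Groups were compared with limma 3.58.1 in R 4.3.3 (lmFit, eBayes, two-sided), with Benjamini-Hochberg adjustment over all tested probe sets and a threshold of 0.05; SE is limma's moderated standard error. On simulated data for this comparison (18769 probe sets) the fit recovered 56% of changes of 0.585 and 88% of changes of 1 on the log2 scale. It also called 11 unchanged probe sets. The simulated noise was independent between probe sets, while probe sets on the real arrays deviated together, so these rates may not hold for them. Precision is limited by the number of arrays. The members and lists were chosen with earlier results of these data known. Array values are given for genes past the threshold and, in each role group, the 3 largest differences and the 2 brightest probe sets. Some others are given beside them, chosen after their values were seen. Alternatives were other scalings, filters on dim probe sets, variance models, array weights, a block for the replicate number, a fold threshold, gene means and leaving out each array. Tables and figures used pandas 2.3.3 and matplotlib 3.10.9 in Python 3.11.15.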

Additional observations from a re-analysis of the deposited data

How the results depend on the processing

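The counts given next are those of probe sets called (218 in all, as deposited), listed genes lower (3) and higher (0), and all chromosome 4 genes lower (3). Median centring gave 107, 0, 0 and 0. The unmoderated test gave 122, 0, 0 and 0, and a test against a fold of 1.2 gave 57, 0, 0 and 0. Trend and robust variance gave 558, 6, 1 and 10. Testing fewer probe sets, those over the median of the means, gave 575, 5, 1 and 8. Cyclic loess and the filter at the tag control level each gave 1 listed gene higher, Cadps. Leaving out 1 array gave 24 to 517 probe sets, 0 to 5 listed genes lower and 0 to 6 chromosome 4 genes lower, with the highest counts without ROW RNAi replicate 2.

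In the fit with a replicate block, limma called 0 probe sets (2924 had an unadjusted p under 0.05), so 0 listed genes and 0 chromosome 4 genes passed, and dpr7, Zip102B and RhoGAP102A kept their differences at adjusted p-values of 0.13, 0.13 and 0.17. Arrays of the same number deviated together in 2 of 3 pairs (correlations of 0.48, 0.55 and −0.04 over probe sets). No label ties a number to a culture, and the arrays were treated as unpaired.

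The count of listed genes with all ROW RNAi arrays above control (2) was 4 with a further quantile normalization and with cyclic loess, 1 when dim probe sets under the median were left out and 1 with gene means, and 2 to 5 with 1 array left out. The median difference of the listed genes was −0.12 with median centring and −0.034 with cyclic loess. It stayed below 0 in all 17 alternatives. The differences of dpr7, Zip102B and RhoGAP102A stayed below 0 in these alternatives too, while 14 of the 38 listed genes, none of them past the test, changed sign in 1 or more. Apart from fewer probe sets or arrays, the cause of these changes was not tested. Probe sets near the background level, such as those of ci, bt and Syt7, limit what can be said of their genes.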
